A study of Mus musculus with 24 samples.

Results

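Zscan4 is a mouse gene family that encodes zinc finger proteins with a SCAN domain. All entries of the deposited expression table whose symbol starts with Zscan4 were taken, which gave 8 of the 22889 entries: Zscan4b, Zscan4c, Zscan4d, Zscan4e, Zscan4f, Zscan4-ps1, Zscan4-ps2 and Zscan4-ps3. The family was chosen by its measured difference between the oculomotor and spinal GFP+ samples, so the values of these 2 groups are given as a description, with no test between them. Beside the family, 36 other genes known from the 2-cell state are described below in the same samples.

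Zscan4 is transcribed in the 2-cell mouse embryo, when the zygotic genome first becomes active. In mouse embryonic stem cell (mESC) cultures it is on in a small share of the cells at any time, in a transient state that also holds transcripts of other 2-cell genes. In stem cells its product has been linked to telomere lengthening and genome stability, and the transcription factor Dux switches the family on.

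The samples were sorted fractions of motor neuron cultures made from mESCs, with 6 replicates in each of 4 groups. Oculomotor (OMN) cultures came from an Islet1-GFP/NesEPhox2a line, in which GFP reports Islet1 and a nestin enhancer drives a Phox2a transgene in neuronal progenitors, and received 250 nM SAG, a Smoothened agonist, with 100 ng/ml Fgf8 for 5 days. Spinal (SC) cultures came from an Hb9-GFP line and received 500 nM SAG with 100 nM retinoic acid (RA) for 5 days. The GFP+ and GFP- fractions of each culture were collected by fluorescence-activated cell sorting, so that line, reporter, transgene and patterning factors changed together between the cultures and cannot be told apart. The labels do not say whether the replicates were separate differentiations, and p values measure the spread between these samples.

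The copies lay in 1 cluster on chromosome 7, and their positions come from GENCODE M21 on GRCm38, the assembly that mm10 names. From Zscan4b at chr7:10900740-10905050 to Zscan4-ps3 at chr7:11609308-11614112 the cluster spanned 713 kb. Between them, in order, were Zscan4c (chr7:11005745-11010547), Zscan4-ps1 (chr7:11065139-11069691), Zscan4d (chr7:11161374-11166159), Zscan4e (chr7:11306378-11310682), Zscan4f (chr7:11397915-11402318) and Zscan4-ps2 (chr7:11514310-11519111). Each has up to 4 exons, and the annotation lists all 8 as protein coding, including the 3 whose symbols mark them as pseudogenes. Zscan4a, an unprocessed pseudogene at chr7:10794242-10799057, was not analysed here.

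The promoters of 4 copies are shown because they are the part of the locus where the copies differ at a motif that bears on the 2-cell state. RefSeq sequences were available for Zscan4b, Zscan4c, Zscan4d and Zscan4f of the 8 copies. Each stretch below runs 5′ to 3′ over 200 bases, from 210 to 11 bases before the transcription start that RefSeq gives on GRCm38.p6. For Zscan4d this start lies 11 bases downstream of the GENCODE start, so its stretch ends on the first base of the GENCODE gene, and for the other 3 copies the starts are the same. Capitals mark 2 motifs. One is TATAAAA, the core of many promoters, and the other is TGATTCAA, the first letters of the sequence known to be bound by Dux.
Zscan4b, minus strand, chr7:10905061-10905260: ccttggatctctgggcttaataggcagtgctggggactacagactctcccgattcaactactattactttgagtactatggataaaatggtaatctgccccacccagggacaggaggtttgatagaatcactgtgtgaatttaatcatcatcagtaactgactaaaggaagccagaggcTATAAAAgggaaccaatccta
Zscan4c, plus strand, chr7:11005535-11005734: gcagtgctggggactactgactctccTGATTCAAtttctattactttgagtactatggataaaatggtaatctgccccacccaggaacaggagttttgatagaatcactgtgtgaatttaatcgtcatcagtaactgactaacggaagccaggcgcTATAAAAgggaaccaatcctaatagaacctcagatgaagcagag
Zscan4d, minus strand, chr7:11166159-11166358: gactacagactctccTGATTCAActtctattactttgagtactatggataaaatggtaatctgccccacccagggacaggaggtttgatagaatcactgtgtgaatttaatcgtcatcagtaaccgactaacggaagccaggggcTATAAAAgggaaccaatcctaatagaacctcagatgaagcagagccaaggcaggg
Zscan4f, plus strand, chr7:11397705-11397904: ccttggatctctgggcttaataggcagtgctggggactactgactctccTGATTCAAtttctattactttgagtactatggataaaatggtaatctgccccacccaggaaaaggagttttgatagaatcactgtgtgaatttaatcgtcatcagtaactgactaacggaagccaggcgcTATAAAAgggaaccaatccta
TATAAAA was found in 4 of 4 of these promoters and TGATTCAA in 3 of 4, all on the strand of the gene and not overlapping. Searched on both strands in 32851 promoter windows of 300 bases, TATAAAA was present in 5.48% and TGATTCAA in 0.581%. In Zscan4c, Zscan4d and Zscan4f the first letters of the motifs stood 130 bases apart, although the distance of TATAAAA from the annotated start varied between copies. Zscan4b differed from Zscan4f in the 8 letters of TGATTCAA by the single substitution T50C, with positions counted from 1 at the 5′ end of the printed stretch. TGCACAC, a motif known for the Zscan4 protein, was in 0 of 4 and in 4.40% of all windows. Identity between pairs of the 4 promoters ran from 95.3% (Zscan4b and Zscan4c) to 99.3% (Zscan4c and Zscan4f) of aligned bases. A match or its lack describes these letters and says nothing of binding.

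The transcripts were also near copies of each other, which limits what single entries can show. Of all 43-base windows of the transcript, the shorter of the 2 read lengths in the study, 5.09% were found in no other Zscan4 transcript for Zscan4f, 8.16% for Zscan4e, 10.2% for Zscan4b, 10.5% for Zscan4-ps2 and 12.3% for Zscan4c. The share was 24.7% for Zscan4-ps3, 45.8% for Zscan4d and 47.2% for Zscan4-ps1. Zscan4f shared 86.7% of its windows with Zscan4-ps2, and Zscan4e 87.6% of its windows with Zscan4b. All entries of the family are therefore uncertain as single genes, and their sum was used for the level per sample. If a read was counted in several entries, the sum holds it more than once, so the sums may be too high.

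Levels are given in RPKM, reads per kilobase of transcript scaled to the mapped reads of the library. The smallest steps of these values allowed the reads behind them to be recovered: the 24 samples held between 752578 and 7675758 mapped reads, and all 77 Zscan4 values above 0 were whole numbers of reads to within 0.0065%. The lowest depth belonged to spinal GFP- sample 3. Replicates 1 to 4 had at most 4642763 reads and replicates 5 and 6 at least 4822654. A second limit came from spinal GFP- sample 2, in which 3 gene models (Gm10800, Gm10801 and Gm21738) held 68.8% of the summed RPKM. Counting limits given below cover counting error only.

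Zscan4 transcripts were abundant in the spinal GFP+ samples and not detected in the oculomotor GFP+ samples. The summed level of the 8 entries in spinal GFP+ samples 1 to 6 was 955, 649, 58.4, 178, 298 and 111 RPKM, a mean of 375 ± 354 (SD, n = 6). The highest sample was thus far above the lowest, but none came near 0. In the 6 oculomotor GFP+ samples all 8 entries were at 0 reads. With 3 reads as the limit that a count of 0 allows, Zscan4c could reach between 0.191 and 0.932 RPKM in these samples, depending on their depth. The lowest spinal GFP+ value of Zscan4c, 9.65 RPKM, was at least 10.3-fold higher than the highest of these limits. These groups did not overlap, which is what the family was chosen for.

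The GFP- fractions of both cultures held far less Zscan4 in the deposited RPKM, with 1 exception. In spinal GFP- samples 1 to 6 the summed level was 3.97, 16.1, 1.85, 123, 0 and 0 RPKM, a mean of 24.1 ± 48.6 (SD, n = 6). Sample 4 alone lay within the range of the GFP+ fraction by these values. In sample 2 the 3 gene models named above held 68.8% of the summed RPKM, which lowers its other entries. Its 16.1 RPKM may thus understate Zscan4. In the oculomotor GFP- samples it was 0 in 5 of 6 and 0.545 RPKM in sample 2. That value came from exactly 1 read in each of 5 entries (Zscan4-ps1, Zscan4-ps2, Zscan4-ps3, Zscan4c and Zscan4f), which may be 1 read counted in 5 entries. The order of the group means was therefore spinal GFP+, spinal GFP-, oculomotor GFP- and oculomotor GFP+, and both oculomotor fractions were at or near 0. In bulk samples, fewer cells of a type and less RNA per cell cannot be told apart.

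**Figure D1:**
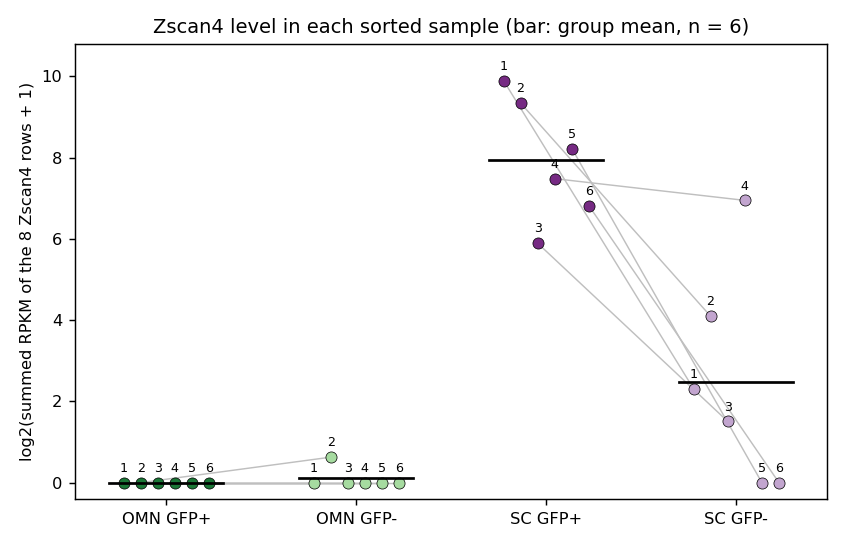
Level of the 8 Zscan4 entries together in each sample, as log2(summed RPKM + 1), in the 4 sorted groups. Points are samples labelled with their replicate number, grey lines join GFP+ and GFP- samples of 1 culture with the same number, and black bars are group means (n = 6). The spinal GFP+ samples lie between 58.4 and 955 RPKM, spinal GFP- sample 4 lies among them at 123 RPKM, and 11 of 12 oculomotor samples lie at 0.

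Zscan4c, Zscan4d, Zscan4f, Zscan4-ps1 and Zscan4-ps2 ranked the spinal GFP+ samples as the sum did. Zscan4b, Zscan4e and Zscan4-ps3 did not. Zscan4f and Zscan4c, which encode full-length proteins, had medians of 51.1 RPKM (range 11.8 to 177) and 40.2 RPKM (9.65 to 164), and Zscan4d, the copy known as the main one in 2-cell embryos, had 34.3 RPKM (8.14 to 92.8). Zscan4-ps2 had a median of 44.0 RPKM (9.90 to 178), Zscan4-ps1 of 25.0 RPKM (3.44 to 107) and Zscan4-ps3 of 23.0 RPKM (4.50 to 162). Zscan4e and Zscan4b were the lowest, at 12.2 RPKM (2.58 to 49.6) and 8.22 RPKM (0.537 to 69.7). All 8 entries were above 0 in all 6 samples. These ranges overlap, and neighbours in this order differed by less than the spread over samples. Sample 3, which had 216 reads summed over the entries and 40 in its largest entry, was the lowest for 6 of the 8.

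**Figure D2:**
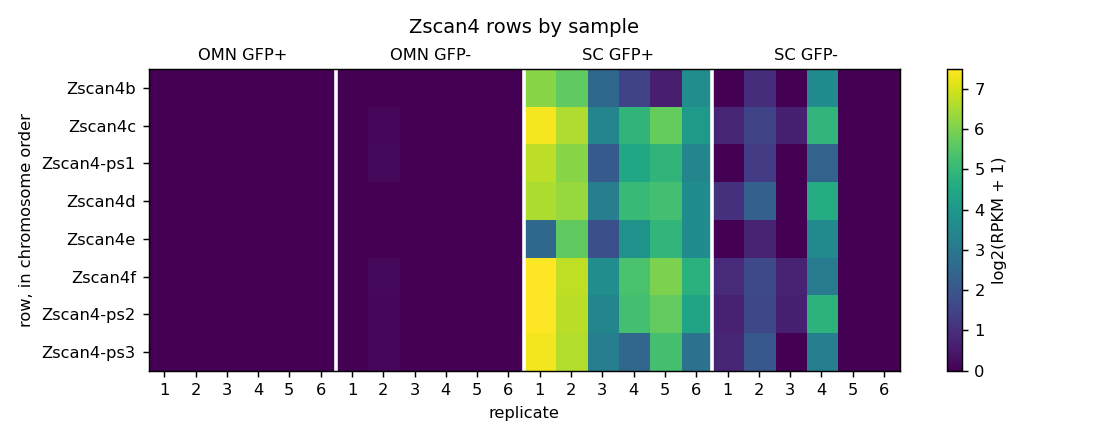
Each of the 8 Zscan4 entries, in chromosome order from top to bottom, in each of the 24 samples. Colour is log2(RPKM + 1). Most values are high in the spinal GFP+ samples and in spinal GFP- sample 4. The oculomotor samples are at 0 apart from 5 entries of GFP- sample 2.

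In the spinal GFP- samples the entries were at or below 3.90 RPKM outside sample 4. Over all 6 samples the lowest value of every entry was 0, and the medians ran from 0 for Zscan4b, Zscan4e and Zscan4-ps1 to 0.759 RPKM for Zscan4f. In sample 4 Zscan4c was at 29.0 RPKM, Zscan4-ps2 at 27.8 RPKM, Zscan4d at 23.5 RPKM and Zscan4f at 7.57 RPKM. In samples 5 and 6, the deepest of the group with 7052382 and 7095201 reads, no Zscan4 read was counted. Zscan4c in the GFP+ samples of the same number was at least 277-fold (replicate 5) and at least 83.5-fold (replicate 6) higher than the limit of 3 reads. These GFP+ samples held 852 and 271 reads in Zscan4c.

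Whether the GFP+ fraction of the spinal cultures held more Zscan4 than the GFP- fraction was tested with limma on log2(RPKM + 1) over all entries and all 24 samples. The spinal GFP+ samples entered the choice of the family, so this comparison is not independent of it, and its counts and p values describe these samples and support nothing further. Of 8 entries, 7 rose in the GFP+ fraction. Over all 22179 entries tested 0.397% rose. This fit estimates the spread of an entry over all groups, so the oculomotor samples, at or near 0 for Zscan4, lower the SE and p values below. The fit of the spinal samples alone is given further down. The largest difference was that of Zscan4f, at 4.61 ± 0.51 (log2, SE; limma adjusted p = 8.08e-05). Zscan4-ps2 followed at 4.19 ± 0.65 (adjusted p = 0.00157), Zscan4-ps1 at 4.03 ± 0.56 (adjusted p = 0.000357) and Zscan4c at 4.03 ± 0.66 (adjusted p = 0.00192). Zscan4b, which had 0.537 RPKM in GFP+ sample 5 and 11.1 RPKM in GFP- sample 4, gave 2.59 ± 0.72 and did not pass (adjusted p = 0.0834). The other 3, Zscan4d, Zscan4-ps3 and Zscan4e, differed by 3.67, 3.61 and 3.01 (adjusted p from 0.00286 to 0.00642).

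Pair by pair the direction was the same apart from replicate 4. The summed level was higher in the GFP+ sample in 6 of 6 pairs, with differences of 7.59, 5.25, 4.38, 0.53, 8.23 and 6.81 in log2(summed RPKM + 1) for replicates 1 to 6. Zscan4f, Zscan4-ps1, Zscan4-ps2, Zscan4d and Zscan4e were higher in 6 of 6 pairs. Zscan4c, Zscan4-ps3 and Zscan4b were higher in 5 of 6, and in replicate 4 they differed by -0.02, -0.77 and -2.09. The ratio of the mean sums was 15.6 with all replicates and 94.5 without replicate 4. For Zscan4f all 6 GFP+ samples lay above all GFP- samples.

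The count of calls changed with the samples fitted. In a fit of the 12 spinal samples alone, with the same differences, 1 of 8 entries passed (Zscan4f, limma adjusted p = 0.0428), and it was the 1 entry that rose among all 20877 tested (0.00479%), against 88 in the fit of all samples. The SE of Zscan4c was 0.85 in that fit and 0.66 in the fit of all samples. With replicates paired in the 12 samples none of 8 passed (lowest adjusted p = 0.158), nor did any entry of the table. In replicates 1 to 4 alone none of 8 and no other entry rose (lowest adjusted p of the 8 = 0.0610), and the differences were 2.39 to 4.22, against 2.14 to 5.38 in replicates 5 and 6. Without replicate 4 of both spinal fractions 8 of 8 entries passed in the fit over all groups (adjusted p from 1.32e-06 to 0.00220), where 1.36% of all entries rose.

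Replicate 4 of the spinal cultures stood apart, and its labels and its markers did not agree. Mnx1, the gene of the Hb9 reporter, was at 69.4 RPKM in GFP- sample 4 and at most 4.72 RPKM in the other 5 GFP- samples. In GFP+ sample 4 Isl1, a transcription factor of motor neurons, was at 7.63 RPKM, against 50.4 to 123 RPKM in the other 5 GFP+ samples. The pluripotency factor Nanog was at 156 RPKM in the GFP+ and 185 RPKM in the GFP- library labelled replicate 4, and at most 40.5 RPKM in the other 10 spinal samples. The 2 fractions correlated at r = 0.956 over 11952 genes, against 0.785 to 0.902 in the other 11 pairs of fractions. What part this had in the Zscan4 level of the GFP- library labelled 4 was not tested.

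The reporters behaved otherwise as the labels state. Isl1 ran from 141 to 369 RPKM in oculomotor GFP+ and from 0.696 to 1.87 RPKM in oculomotor GFP- samples. Mnx1 ran from 43.1 to 149 RPKM in spinal GFP+ samples and reached at most 6.91 RPKM in oculomotor GFP+ samples. Phox2a, the transcription factor of oculomotor neurons, was at 5.83 to 53.4 RPKM in oculomotor GFP+ samples and reached 8.59 RPKM in spinal GFP+ samples. In oculomotor GFP- samples it was at 3.09 to 6.43 RPKM, which overlaps the oculomotor GFP+ range. In the fit of all samples, 5 of 10 motor neuron markers rose in spinal GFP+ against GFP- samples, where 0.397% of all entries rose. Among them were Mnx1 by 4.02 and Isl1 by 3.32 (limma adjusted p = 0.00192 and 0.00147). Lhx3 rose by 2.96 and Lhx1 by 2.60 (limma adjusted p = 0.0142 and 0.000349). In the fit of the 12 spinal samples none of the 10 rose, and Zscan4f was the 1 entry that did.

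The oculomotor and spinal GFP- fractions allow a comparison of the cultures in samples that did not enter the choice. None of the 8 entries passed (limma adjusted p from 0.439 to 0.725), against 0.410% of all entries higher in oculomotor and 0.550% higher in spinal GFP- samples. At an unadjusted p under 0.05 there was 1, Zscan4d. All 8 were lower in the oculomotor fraction, by 0.59 to 1.33 (log2), and for Zscan4c the 95% interval of the difference ran from -2.65 to 0.08. Without replicate 4 of the spinal cultures the differences shrank to between -0.67 and -0.15. A difference between the GFP- fractions was thus not detectable with these samples.

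The share of each copy within the family changed from sample to sample. Zscan4c, Zscan4f and Zscan4-ps2 each made up 13.9% to 23.6% of the summed RPKM in the spinal GFP+ samples. Zscan4b made up 10.4% in sample 6, 1.04% in sample 4 and 0.180% in sample 5, where it had 7 reads and Zscan4c 852. Zscan4e made up 9.98% in sample 6 and 0.500% in sample 1, where it had 24 reads and Zscan4c 1048. Zscan4-ps3 made up 16.9% in sample 1 and 2.53% in sample 4. These shifts did not run in parallel: Zscan4b was low in samples 4 and 5, Zscan4e in sample 1 and Zscan4-ps3 in samples 4 and 6.

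The same held between the 2 fractions of replicate 4. Zscan4b made up 1.04% of the summed RPKM in GFP+ sample 4 and 9.05% in GFP- sample 4. For Zscan4f the shares were 22.1% and 6.17%, and for Zscan4-ps1 11.9% and 3.43%. Reads assigned to these near copies cannot be separated further, and since the libraries were amplified, reads are not independent molecules.

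**Figure D3:**
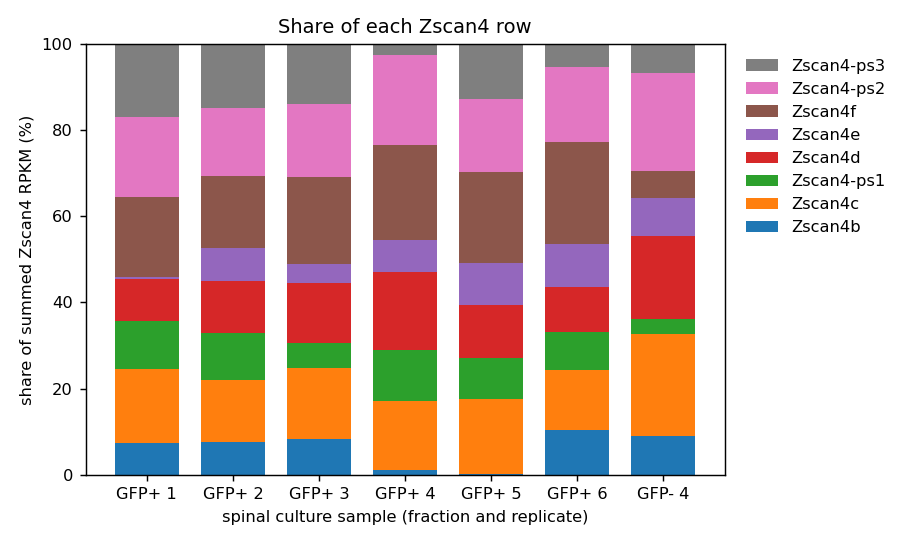
Share of each Zscan4 entry in the summed Zscan4 RPKM (%), stacked in chromosome order, for the 6 spinal GFP+ samples and spinal GFP- sample 4. Zscan4b shrinks to 1.04% and 0.180% in GFP+ samples 4 and 5, Zscan4e to 0.500% in GFP+ sample 1, and the 2 samples of replicate 4 differ in Zscan4b, Zscan4f and Zscan4-ps1.

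Other genes of the 2-cell state were also highest in the spinal GFP+ samples. The 36 listed genes present in the table include Tcstv1, Tcstv3, Zfp352, the Usp17l, Tdpoz and Trim43 genes and members of the Pramef family. Their summed level ran from 13.5 to 670 RPKM in spinal GFP+ samples (median 84.7) and from 1.75 to 131 RPKM in spinal GFP- samples (median 11.6). In oculomotor samples it was between 0.979 and 4.28 RPKM in the GFP+ and between 0 and 7.12 RPKM in the GFP- fraction. The groups of the spinal culture overlapped, since GFP- samples 2 and 4 were at 106 and 131 RPKM. The value of sample 2 may be too low, since the 3 gene models lower its other entries. The group median exceeded 1 RPKM for 18 of the 36 genes in spinal GFP+ and 2 in spinal GFP- samples. It did so for 0 in oculomotor GFP+ and 1 in oculomotor GFP- samples, and 20 genes were at 0 in all 12 oculomotor samples. The same shares over all entries are not given here, so these counts describe the list and do not show how unusual it is.

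None of the 35 tested genes of this list passed between spinal GFP+ and GFP- samples. At an unadjusted p under 0.05, 15 were higher in GFP+ samples, where 5.27% of all entries were. Of 35 differences 32 were positive (median 0.64, against 0 over all entries). The spinal GFP+ samples entered the choice of Zscan4, and the list was chosen with earlier results known. Many of its genes belong to the same families, so these counts are not independent and describe these samples only. Gm13057, a Pramef family gene and the highest of the list, ran from 2.21 to 154 RPKM in GFP+ and from 0 to 34.2 RPKM in GFP- samples and differed by 2.96 ± 0.78 (limma adjusted p = 0.0649). BB287469, the next highest, differed by 1.65 ± 0.78 (adjusted p = 0.466). With the GFP+ and GFP- samples of each replicate paired, 7 of 35 passed, where 1.33% of all entries rose, and without replicate 4 of both fractions 4 passed, where 1.36% rose. With both changes 14 passed, where 3.05% of all entries rose. These fits held all 4 groups, so genes at or near 0 in the oculomotor samples have a lower SE, as for Zscan4. In the fit of the 12 spinal samples Zscan4f was the 1 entry that rose, and with replicates paired there none did. None of the listed genes thus rose in those fits. Between the GFP- fractions 0 of 35 passed, 1 at an unadjusted p under 0.05, with a median of -0.46 against -0.04 over all entries.

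**Figure D4:**
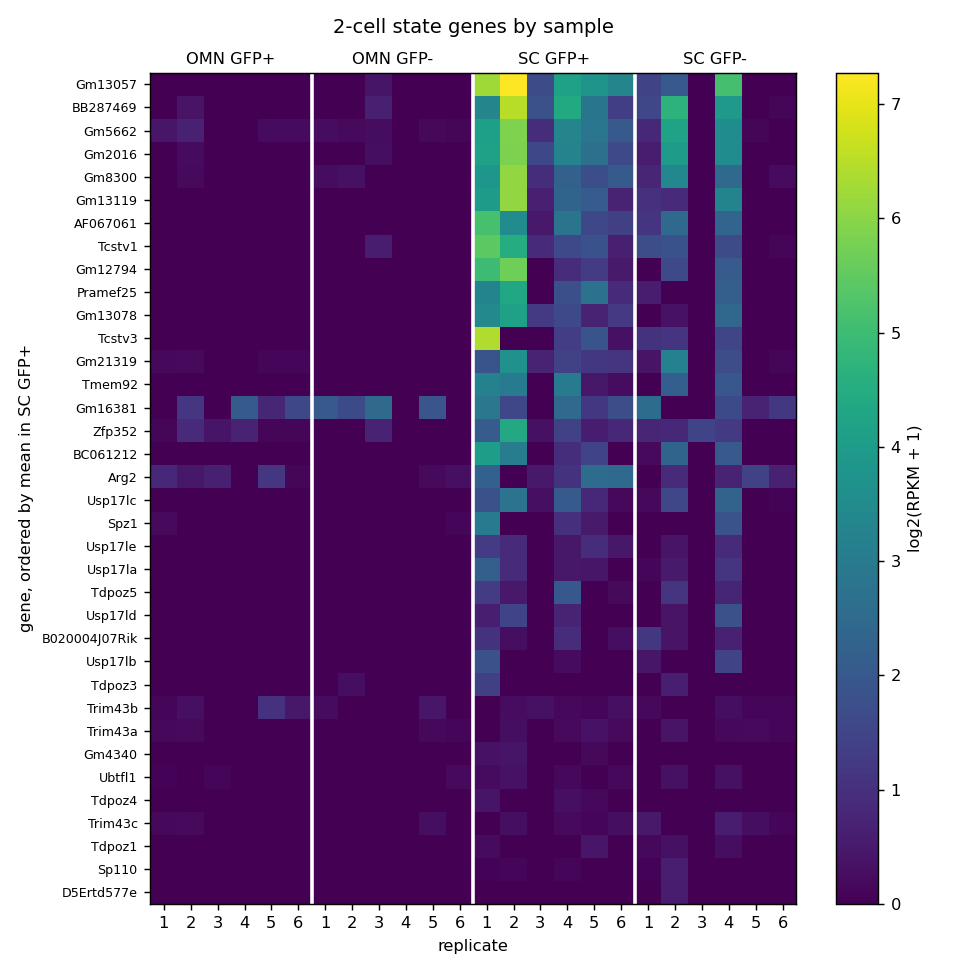
The 36 other 2-cell state genes in each sample, ordered by their mean in spinal GFP+ samples. Colour is log2(RPKM + 1). The upper part of the list is highest in spinal GFP+ samples 1 and 2 and present in spinal GFP- samples 2 and 4, and 20 genes are at 0 in all 12 oculomotor samples.

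The genes with the pattern most like Zscan4 were found by Pearson's r between log2(RPKM + 1) of each gene and the log2 of the summed Zscan4 level over 24 samples. The 10 highest of 14318 genes were Gm4312 (r = 0.97), Gm13057, Gm13040, Mnx1, Gm2056, BC080695, Gm13043, Gm2016, Gm20767 and Gm21761 (r = 0.90), and the last 9 lay between 0.90 and 0.95. The 24 points share 2 cultures and 2 gates, and 6 of them form each group, so that r describes the groups as much as the samples. Gm4312 was at 0 in all 12 oculomotor samples, at 1.26 to 34.7 RPKM in spinal GFP+ and at most 9.01 RPKM in spinal GFP- samples. Gm13057, Gm13040 and Gm13043 had nearly the same values in spinal GFP+ sample 2 (154, 151 and 153 RPKM). In spinal GFP+ sample 1 they were at 74.0, 73.6 and 8.68 RPKM. Whether they shared reads was not tested, so they may not count as separate genes. Mnx1, whose reporter defined the spinal gate, was the only motor neuron marker among the 10. With Spearman's rho over the 12 spinal samples alone, 5 of these 10 remained among the 10 highest, and Mnx1 fell to rank 45.

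The known activators of the state did not pass in either comparison (0 of 6). Dppa4, a chromatin factor of pluripotent cells that acts upstream of Dux, ran from 0 to 102 RPKM in spinal GFP+ samples. Its highest value there was in sample 4, while Zscan4 was highest in sample 1. In spinal GFP- samples Dppa4 was highest in sample 4, at 78.2 RPKM, which also held the most Zscan4 of that group. Spinal GFP- sample 2, the next in Zscan4, had Dppa4 at 0. In oculomotor GFP- samples, where Zscan4 was at or near 0, Dppa4 ran from 8.70 to 84.7 RPKM. Dppa4 differed by 1.27 between the spinal fractions (limma adjusted p = 0.731) and by 2.77 between the GFP- fractions (adjusted p = 0.229). Patz1 was at 4.78 to 20.7 RPKM in spinal GFP+ samples and differed by 0.56 between the spinal fractions (adjusted p = 0.700). Duxf3, an entry of the Dux family, had a median of 0.514 RPKM (range 0 to 2.71) in spinal GFP+ samples. Its median was 0 in oculomotor GFP+ (0 to 2.88) and oculomotor GFP- samples (0 to 0.128). The highest Duxf3 value of all samples was in oculomotor GFP+ sample 4, where Zscan4 was at 0. Duxf3 differed by 0.22 between the spinal fractions (limma adjusted p = 0.912). What part these activators had in the Zscan4 level was not tested.

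The chromatin repressors of the state were present in all groups and none of 14 passed in either comparison. Trim28, a corepressor of zinc finger proteins, was at 49.1 to 178 RPKM in spinal GFP+ and at 34.5 to 121 RPKM in oculomotor GFP+ samples. It differed by 0.45 between the spinal fractions (limma adjusted p = 0.833). Ncl, the nucleolar protein nucleolin, differed by 0.01 between the spinal fractions (adjusted p above 0.99) and by 0.93 between the GFP- fractions (adjusted p = 0.387). The list had a median difference of 0.09 between the spinal fractions and of 0.25 between the GFP- fractions.

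Genes of telomere maintenance and recombination and the other Zscan genes did not pass either, with 0 of 13 and 0 of 12 in both comparisons. Tinf2 and Acd, subunits of the telomere-binding shelterin complex, differed by -0.88 and 0.89 between the spinal fractions (limma adjusted p = 0.635 and 0.560). Zscan26 and Zscan21, zinc finger genes with the same SCAN domain, differed by -0.52 and 0.28 (adjusted p = 0.901 and 0.829). The other Zscan genes summed to 45.0 to 139 RPKM in spinal GFP+ and 34.5 to 154 RPKM in oculomotor GFP+ samples. Their ranges overlapped, unlike those of the Zscan4 entries.

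Markers of pluripotent cells were present in all groups, also in samples with Zscan4 at 0. The 18 markers summed to 1022 to 10068 RPKM in oculomotor GFP- samples, where 5 of 6 had no Zscan4 read, to 49.3 to 12882 RPKM in spinal GFP+ and to 306 to 6560 RPKM in spinal GFP- samples. Most of each high sum was Dppa5a, a stem cell RNA-binding protein with a median of 6336 RPKM in oculomotor GFP- samples. Oculomotor GFP- sample 1 held Nanog at 85.4 and Pou5f1 at 43.7 RPKM with Zscan4 at 0. Spinal GFP+ sample 1 held Nanog at 13.5 and Pou5f1 at 2.22 RPKM with the highest Zscan4 level. Spinal GFP+ sample 3 had Zscan4 at 58.4 RPKM, the lowest of its group, with Nanog at 0 and the lowest sum of the 18 markers. Among spinal GFP- samples, 4 and 2 held the most Zscan4 (123 and 16.1 RPKM) and the most Nanog (185 and 9.48 RPKM). These samples were picked after their values were seen, and the part of pluripotent cells in the Zscan4 level was not tested. Of the 18, 1 fell in spinal GFP+ against GFP- samples (Klf4, by 2.58, limma adjusted p = 0.0137), where 0.830% of all entries fell. Between the GFP- fractions 2 were higher in oculomotor samples (Tdgf1 by 4.00 and Fgf4 by 2.97, adjusted p = 0.0178 and 0.0389), where 0.410% of all entries were higher.

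**Figure D5:**
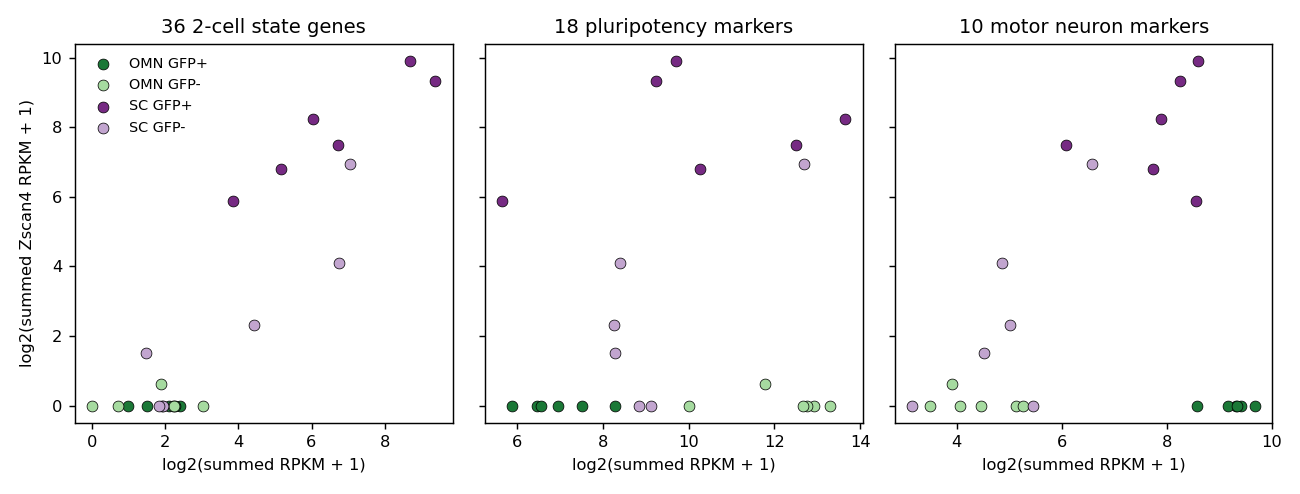
Summed Zscan4 level against the summed level of 36 other 2-cell state genes (left), 18 pluripotency markers (middle) and 10 motor neuron markers (right), each as log2(summed RPKM + 1), with 1 point per sample coloured by group. The oculomotor GFP- samples reach 10068 RPKM of pluripotency markers and the oculomotor GFP+ samples 822 RPKM of motor neuron markers with Zscan4 at or near 0.

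Markers of other cells moved between the fractions too. Of 7 endoderm markers, 5 fell in spinal GFP+ against GFP- samples, where 0.830% of all entries fell, and 4 were lower in oculomotor than in spinal GFP- samples, where 0.550% of all entries were lower. Gata6, a transcription factor of primitive endoderm, ran from 2.65 to 25.0 RPKM in spinal GFP- and from 0 to 1.28 RPKM in spinal GFP+ samples (difference -3.59, limma adjusted p = 0.000143). Gata4, Sox17 and Ttr also fell, by 3.13, 2.40 and 3.44 (adjusted p from 0.000267 to 0.0325). These calls are of the fit of all samples. In the fit of the 12 spinal samples only 3 of all 20877 entries fell in GFP+ samples. The 7 summed to 7.18 to 331 RPKM in spinal GFP- and 3.37 to 15.6 RPKM in spinal GFP+ samples, with 1 marker at 0 in all of the latter. Zscan4 was thus higher in the fraction with fewer endoderm transcripts, and their part in the Zscan4 difference was not tested.

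Fibroblast and neural progenitor markers did not pass in either comparison (0 of 6 and 0 of 6). The fibroblast markers summed to at most 12.7 RPKM in spinal GFP+ and 22.3 RPKM in spinal GFP- samples, led by the matrix gene Dcn, which differed by -0.04 (limma adjusted p above 0.99), while Lum was at 0 in all spinal GFP+ samples. The progenitor markers summed to 10.3 to 185 and 19.4 to 291 RPKM, and Nkx6-1 and Nes differed by 0.02 and -0.38 (adjusted p above 0.99 and 0.924).

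The other transcripts of the cluster were highest in other samples than the Zscan4 sum. Between the outer copies GENCODE lists 39 other genes, of which 2 are in the table, Gm7789 and Gm45598. Gm7789 was at 20.8 and 18.7 RPKM in the GFP+ and GFP- libraries labelled spinal replicate 4 and at most 2.11 RPKM in the other 22 samples. In spinal GFP+ samples 1 and 2, where the Zscan4 sum was highest, it was at 0. It was above 0 in 5 of 6 oculomotor GFP- samples (up to 1.75 RPKM), where Zscan4 was at or near 0. Gm45598 reached 8.01 and 5.31 RPKM in the samples of spinal replicate 4 and at most 0.676 RPKM in the others.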

How the data were processed

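RNA of sorted cells was measured by poly(A) RNA sequencing (Smart-seq2 with tagmentation, without RNA extraction) in 24 samples in 4 groups of 6. The authors mapped reads to mm10 with HISAT2 2.0.3 and deposited RPKM computed with rpkmforgenes, with no counts. The annotation used is not given in the sources used here. The submitters' notes also name DESeq2 1.12.4, which the authors applied to counts. Read lengths were 43 and 51 bases, so the uniqueness of near copies differed between libraries.

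Reads were recovered from the RPKM steps of 5911 single-transcript genes with GENCODE M21 lengths. Per sample, 94.5% to 97.0% of the values under 10 reads were whole to within 0.02 reads. How rpkmforgenes shared reads among near copies was not stated. RPKM is relative to each library's total, so entries that take a large share lower the others.

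Values were tested as log2(RPKM + 1) with limma 3.58.1 in R 4.3.3 (trended variance, Benjamini-Hochberg adjustment, threshold 0.05) over the 22179 entries above 0 in at least 2 samples, in 1 fit of all 24 samples without a replicate block. The offset understates changes of low entries. Spinal GFP+ was compared with spinal GFP-, and oculomotor GFP- with spinal GFP-. GFP+ and GFP- samples with the same number deviated together from their group means in 6 of 6 pairs of each culture (spinal r from 0.421 to 0.661). They were taken as pairs in alternatives. Samples of different number were not compared, and GFP- samples of the 2 cultures with the same number reached r = 0.612. These r values thus cannot show that the numbers mark pairs. The fits were tested on simulated data. Tables and exact tests used Python 3.11.15, pandas 2.3.3, numpy 2.4.6 and scipy 1.17.1, and figures matplotlib 3.10.9.

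The family, gene lists and tests were chosen with earlier results of these data known. Named genes were all Zscan4 entries, list members past the threshold (at most 4 per list and comparison), the 2 most abundant members of lists without any, the 10 genes most like Zscan4, and Isl1, Mnx1 and Phox2a. Nanog, Pou5f1, Dppa5a, Duxf3 and the 2 neighbouring genes were named after their values were seen. Of the 39 listed 2-cell genes 36 were in the table and 35 were tested. Alternatives changed the offset, filter, weights, scaling, samples and pairing.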

Additional observations from a re-analysis of the deposited data

Results flagged for a closer look

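In groups of 6 samples, a sample was marked when its gap to the nearest other sample was above Dixon's 95% critical share of the group's range in log2(RPKM + 1). Of the 24 groups of values that were not all equal, 10 held such a sample. In 6 of them a single value was above 0, so that the mark follows from that alone and the rate of about 1 in 20 groups that chance gives does not apply. These 6 were all in oculomotor GFP- sample 2, with Zscan4-ps1 at 0.116 RPKM, Zscan4-ps2 and Zscan4-ps3 at 0.103 RPKM each, Zscan4c at 0.103 RPKM, Zscan4f at 0.120 RPKM and the sum at 0.545 RPKM, resting on 1 read per entry. The other 4 were in the spinal GFP- library labelled replicate 4, with Zscan4-ps2 at 27.8 RPKM, Zscan4b at 11.1 RPKM, Zscan4c at 29.0 RPKM and Zscan4e at 11.0 RPKM, the highest of their group in each case.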

How the results depend on the processing

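All 8 Zscan4 entries kept a positive difference between the spinal fractions under every alternative fitted (from 2.03 to 6.30 on the log2 scale) and a negative one between the GFP- fractions (from -2.87 to -0.15), where 0 of 8 passed throughout. Of 8 entries, 7 passed between the spinal fractions in the fit of all samples, and 7 to 8 when single replicates were left out. The number fell to 1 in the fit of the 12 spinal samples, 0 in that fit with the replicate block and 0 in replicates 1 to 4, and over all entries 1, 0 and 0 rose there, against 88. An exact two-sided permutation test of 6 against 6 spinal samples per entry, with no adjustment, gave p from 0.00216, the smallest it can give, to 0.0368. It ignores the pairs of fractions and uses GFP+ values that entered the choice of the family. The entries may also share reads, so these p values describe the samples and support nothing further. In the fit of all samples the replicate block left 7 of 8, and between the GFP- fractions 0. These GFP- samples come from different cultures, and the correlations cannot show whether their numbers pair them (4 of 6 above 0.1). For the other 2-cell genes 0 of 35 passed between the spinal fractions, but 2 with an offset of 0.1 RPKM, 1 with a mean of at least 1 RPKM required, 3 with sample quality weights, 7 with the replicate block (1.33% of all entries rose), 4 without replicate 4 of both fractions (1.36%), 14 with the block and without replicate 4 (3.05%), and 0 to 4 with single replicates left out (4 without GFP- replicate 4, 3 without GFP+ replicate 3, 1 without GFP+ replicate 5). In the fits of the 12 spinal samples, with or without the block, none of these genes rose. The cause of these changes was not tested. Between the GFP- fractions 1 of 35 passed with sample quality weights (Trim43c). The 10 genes most like Zscan4 shared 5 with the list by Spearman's rho. The permutation test, the block without replicate 4, the paired fit of 12 samples and the 0.1 RPKM offset without replicate 4 were chosen after seeing the data. Depth limits the zeros: 1 read of Zscan4c was worth 0.057 to 0.584 RPKM.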
